A study of Mus musculus with 6 samples.

Results

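The 9 genes described here encode transcription factors that set cell identity in the exocrine pancreas, its ducts and the neighbouring gut. They were taken as a fixed list of gene symbols, with 4 acinar factors (Ptf1a, Bhlha15, Rbpjl and Nr5a2) and 5 ductal and gut factors (Sox9, Pdx1, Hnf4a, Gata6 and Foxa2). All 9 were measured, among 18193 genes with at least 1 probe set of their own, and 22 of the 45037 probe sets tested were annotated to 1 of them alone. Each gene is given at its probe set of highest mean unless another is named.

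Gene expression was measured on 6 Affymetrix mouse arrays, 1 for each sample of pancreatic tumour cells from C57BL/6 mice aged 11 weeks. Among the tumour alleles that the labels give every sample are p53f/f and ptf1a-Cre. The 3 samples labelled wt are wild-type at Msi1 only, since the tumour alleles were present in them too. The 3 labelled Msi1 -/- are named Msi1-null below; the product of this gene, Musashi 1, binds RNA and controls translation in progenitor cells. By its name, Cre in all 6 samples was driven by the promoter of Ptf1a, itself among the 9 genes, and the labels do not say whether this Cre replaces a Ptf1a allele. Nothing in the labels ties samples to separate animals, and the spread that p-values rest on may be technical.

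In normal pancreas PTF1A binds DNA in a complex with a common bHLH partner and RBPJ or its relative RBPJL, and this complex activates digestive enzyme genes. BHLHA15, also known as MIST1, organises the secretory apparatus of acinar cells, and NR5A2 is a nuclear receptor that acts with PTF1A at enzyme genes. SOX9 maintains duct and progenitor cells, PDX1 specifies pancreas and duodenum, and HNF4A, GATA6 and FOXA2 are regulators of gut-derived epithelium that also mark differentiated states of pancreatic cancer. Acinar cells lose acinar factors and gain ductal ones during acinar-to-ductal metaplasia, which is why the 2 kinds of factor were set against each other.

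Promoter windows show the DNA around the start sites of 5 genes that turn up again below, 2 acinar factors and 3 that were lowest in the same Msi1-null array. RefSeq windows of build GRCm38.p6 run from 250 bases before to 50 after a start, and 7 of the 9 genes matched, with 11 windows. Capitals mark matches, on either strand, to the HNF1 motif GTTAAT, the Onecut core ATCAAT, the FOXA core TGTTTAC and its variant TGTTTGC, the nuclear receptor core AGGTCA, the GATA site AGATAA, the E-box CACCTG that PTF1A and its partners bind, and the E-box CAGCTG. A site of the NR5A family (CAAGGTCA), which contains the nuclear receptor core, was searched too. Shown 5′ to 3′ on the strand of the gene are the most upstream windows of Rbpjl (chr2:164402944-164403243, plus strand), Nr5a2 (chr1:136960399-136960698, minus strand), Pdx1 (chr5:147269847-147270146, plus strand), Hnf4a (chr2:163506607-163506906, plus strand) and Foxa2 (chr2:148046920-148047219, minus strand). A second Hnf4a window (chr2:163546905-163547204, plus strand) is added because this gene is known for alternative promoters used in different organs.
Rbpjl: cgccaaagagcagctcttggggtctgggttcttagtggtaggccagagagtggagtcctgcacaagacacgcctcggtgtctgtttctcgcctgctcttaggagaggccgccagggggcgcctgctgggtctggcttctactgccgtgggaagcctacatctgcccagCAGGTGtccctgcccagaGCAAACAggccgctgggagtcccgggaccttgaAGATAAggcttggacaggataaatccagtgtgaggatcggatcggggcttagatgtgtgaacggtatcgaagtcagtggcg
Nr5a2: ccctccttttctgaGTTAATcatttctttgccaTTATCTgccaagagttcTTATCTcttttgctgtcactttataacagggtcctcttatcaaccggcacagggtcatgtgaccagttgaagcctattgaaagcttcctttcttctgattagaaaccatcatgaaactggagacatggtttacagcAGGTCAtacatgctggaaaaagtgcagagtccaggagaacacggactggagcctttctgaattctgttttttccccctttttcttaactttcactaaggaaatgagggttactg
Pdx1: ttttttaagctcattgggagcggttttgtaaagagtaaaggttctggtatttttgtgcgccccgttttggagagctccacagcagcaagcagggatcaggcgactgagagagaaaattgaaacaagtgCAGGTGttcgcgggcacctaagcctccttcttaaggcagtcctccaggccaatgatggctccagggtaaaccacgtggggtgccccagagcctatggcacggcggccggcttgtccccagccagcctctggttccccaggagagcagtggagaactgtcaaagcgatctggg
Hnf4a upstream start: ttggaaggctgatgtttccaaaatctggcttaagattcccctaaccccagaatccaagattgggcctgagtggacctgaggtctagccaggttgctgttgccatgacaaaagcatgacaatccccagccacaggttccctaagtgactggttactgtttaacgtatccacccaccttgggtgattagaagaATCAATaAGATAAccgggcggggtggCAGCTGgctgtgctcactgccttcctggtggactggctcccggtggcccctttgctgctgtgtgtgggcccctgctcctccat
Hnf4a downstream start: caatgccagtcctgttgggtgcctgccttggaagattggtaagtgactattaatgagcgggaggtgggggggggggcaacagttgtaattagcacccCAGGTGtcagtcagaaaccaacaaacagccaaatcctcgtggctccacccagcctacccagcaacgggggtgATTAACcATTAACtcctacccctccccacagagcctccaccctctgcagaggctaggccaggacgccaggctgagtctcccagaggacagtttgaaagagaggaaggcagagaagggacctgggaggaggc
Foxa2: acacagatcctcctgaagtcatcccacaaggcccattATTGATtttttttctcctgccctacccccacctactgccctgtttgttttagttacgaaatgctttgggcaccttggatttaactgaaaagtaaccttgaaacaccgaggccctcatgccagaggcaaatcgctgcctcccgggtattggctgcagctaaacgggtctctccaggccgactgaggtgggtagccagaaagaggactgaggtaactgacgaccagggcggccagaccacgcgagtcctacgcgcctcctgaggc
The E-box CACCTG was found in 5 of the 11 windows, those of Bhlha15, Rbpjl, Pdx1, the downstream start of Hnf4a and another start of Nr5a2, and in 20.2% of all 32851 windows of this length. GATA sites were found in 4 of 11 windows (11.2% of all), HNF1 motifs in 3 (7.1%) and Onecut cores in 2 (7.54%). The FOXA core TGTTTGC, the nuclear receptor core and CAGCTG were each in 1 window (5.07%, 16.3% and 16.3% of all), while TGTTTAC and the NR5A site were in 0 of 11 (3.65% and 1.56% of all). The downstream Hnf4a start holds HNF1 motifs whose first bases lie at -81 and -74 from the start, and the upstream one an Onecut core at -59 and a GATA site at -52. These matches describe the letters in the windows and say nothing of binding.

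None of the lineage factors differed between the genotypes beyond the spread between arrays. At the chosen probe sets 4 genes had a higher and 5 a lower mean log2 intensity in Msi1-null arrays, and the differences lay between -0.24 (Nr5a2) and 0.08 (Gata6). Of the 22 probe sets, 0 passed an adjusted p of 0.05 and 0 an unadjusted p of 0.05 (limma, Benjamini-Hochberg over 45037 probe sets). Over all probe sets 0 (0%) passed the adjusted threshold and 1355 (3.01%) had an unadjusted p under 0.05, and over 1 probe set per gene the latter share was 3.45%. At the chosen probe sets 0 of 9 genes had groups that did not overlap, against 8.28% of all genes. A larger SD of log2 intensity among Msi1-null than among wild-type arrays was seen for 8 of the 9 genes at these probe sets. Bhlha15, 1 of the 8, had SDs that were close, 0.217 (Msi1-null) and 0.206 (wild-type). Over all 22 probe sets the count was 16. The share was 63% of all genes and 64.5% of those above background on every array. Whether the factors stand apart from other genes in this was not tested.

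The arrays themselves differed in ways that touch these values. Array background, taken as the 95th percentile of 44 olfactory receptor probe sets, lay between 154.4 and 167.5. The ratio of 3' to 5' signal of the Gapdh controls, a sign of RNA quality, lay between 1.38 in Msi1-null replicate 1 and 1.86 in wild-type replicate 2. Msi1-null replicate 1 was the lowest of the 6 arrays for 25.7% of all genes and the highest for 25.3%. Wild-type replicate 3 had high Xist (6226 against 131 to 387 in the other arrays) and low Eif2s3y (88.2 against 716 to 944), so that this array had the pattern of a female and the other 5 that of males; the part of sex in the values of the factors was not tested. Msi1 itself was dim at its brightest probe set, 144 to 257 over the wild-type and 127 to 168 over the Msi1-null arrays, and since the place of the probes relative to the deleted part is not known here, it does not check the genotype labels.

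Ptf1a, the founding factor of the acinar lineage, gave a signal at the level of array background. Its intensity was 145, 158 and 164 in wild-type replicates 1 to 3 and 144, 122 and 205 in Msi1-null replicates 1 to 3. Msi1-null replicates 2 and 3 were the lowest and the highest of all 6 arrays, so the wild-type values lay inside the Msi1-null range. Only wild-type replicate 3 and Msi1-null replicate 3 exceeded the background of their array, and the log2 difference was -0.02 ± 0.17 (SE; 95% interval -0.42 to 0.38).

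Bhlha15 was measured slightly above background. Its intensity was 154, 192 and 201 in the wild-type and 174, 223 and 169 in Msi1-null arrays, with the groups interleaved. The log2 difference was 0.05 ± 0.14 (SE; 95% interval -0.27 to 0.37), and 5 of the 6 arrays exceeded background. A second probe set, 1418800_at, was below background on all 6 arrays.

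Rbpjl, the acinar-restricted partner of PTF1A, read 183, 212 and 180 in the wild-type and 167, 147 and 201 in Msi1-null arrays. All 3 wild-type arrays exceeded background, but only 1 Msi1-null array did, replicate 3, whose value lay between those of the wild-type arrays. The log2 difference was -0.17 ± 0.12 (SE; 95% interval -0.45 to 0.12; unadjusted p = 0.215, limma). The other probe set, 1450433_at, was below background throughout.

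Nr5a2 was the one acinar factor above background on all 6 arrays. Its intensity was 310, 435 and 339 in the wild-type and 251, 258 and 426 in Msi1-null arrays. Msi1-null replicates 1 and 2 were the 2 lowest arrays, while replicate 3 reached the level of the highest wild-type array. The means were 361 ± 65.2 for wild-type and 312 ± 98.8 for Msi1-null (SD, n = 3). On the log2 scale they differed by -0.24 ± 0.22 (SE; 95% interval -0.76 to 0.28; exact two-sided permutation p = 0.5, where 3 against 3 arrays allow no p below 0.1). At the next brightest probe set, 1420410_at, the difference was -0.13 ± 0.14 (SE), again with the lowest value in Msi1-null replicate 1 and the highest in wild-type replicate 2. The remaining 2 probe sets of Nr5a2 were below background on every array.

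**Figure D1:**
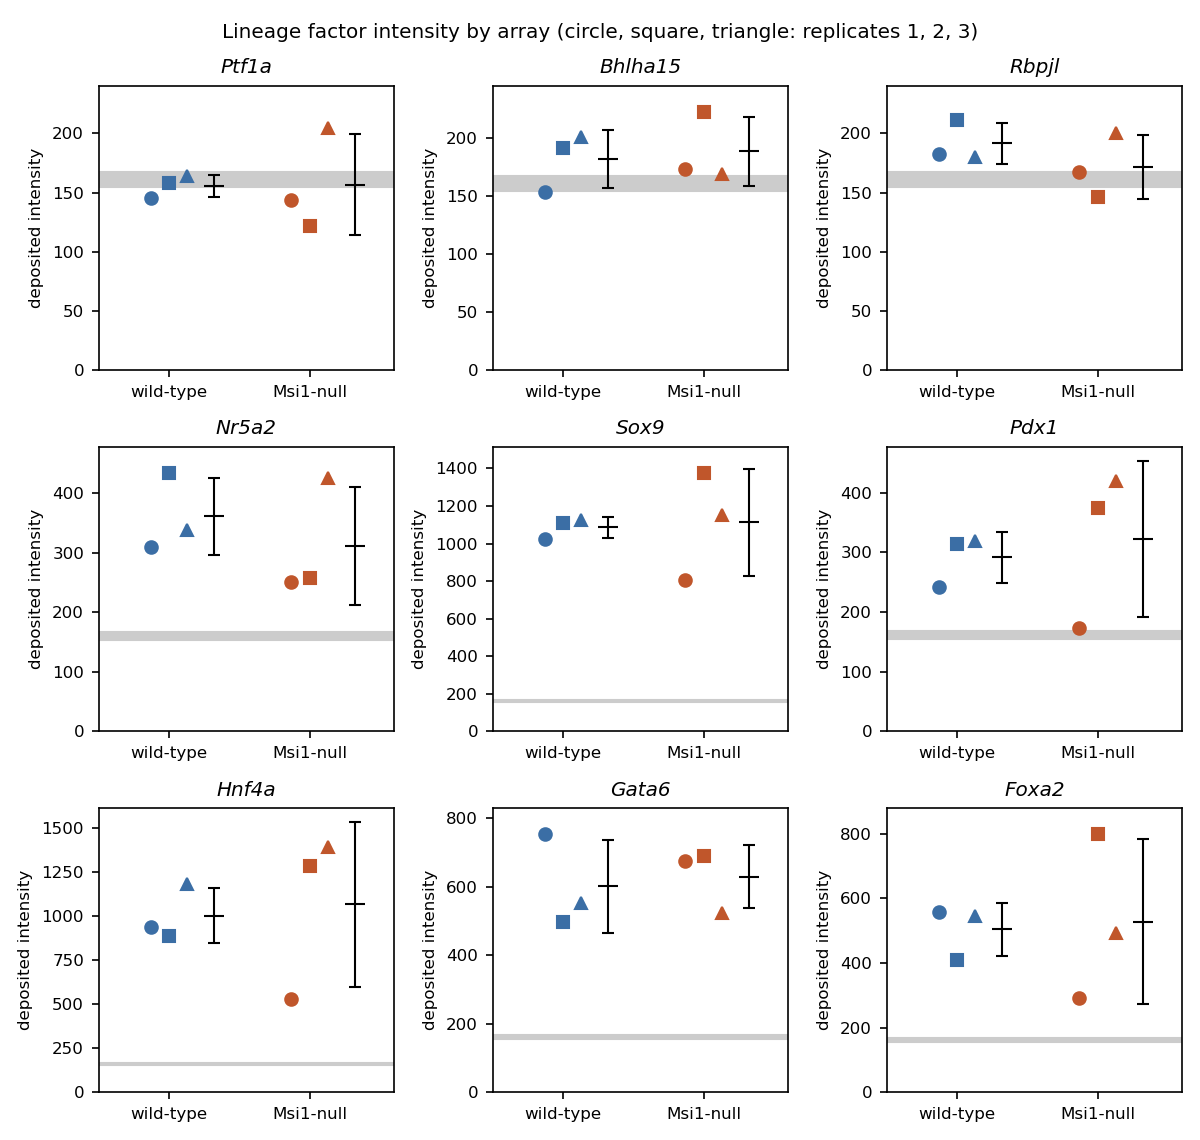
Deposited intensity (linear axis from 0) of the 9 lineage factors on each array, wild-type in blue and Msi1-null in orange, with the group mean and SD as black bars (n = 3) and the range of array background in grey. Msi1-null replicate 1 (orange circle) is the lowest array for Nr5a2, Sox9, Pdx1, Hnf4a and Foxa2, and Ptf1a lies within or near background.

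Sox9, the duct and progenitor factor, was tightly held in wild-type arrays and widely spread in Msi1-null ones. Its intensity was 1023, 1109 and 1127 in the wild-type and 808, 1377 and 1155 in Msi1-null arrays, so that the wild-type values lay in a gap between the lowest Msi1-null array and the other two. The log2 SD was 0.07 in the wild-type and 0.39 in Msi1-null arrays, and the log2 difference of the means was 0.0022 ± 0.19 (SE; 95% interval -0.45 to 0.45). The other 2 Sox9 probe sets had the same lowest and highest arrays, Msi1-null replicates 1 and 2, and differences of 0.0096 and -0.03. Probe set 1424950_at read 413, 399 and 493 in the wild-type and 312, 540 and 453 in Msi1-null arrays, while 1433889_at had a narrower span, from 580 to 699.

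Pdx1 showed the same arrangement with a larger span. Its intensity was 242, 314 and 320 in the wild-type and 174, 375 and 420 in Msi1-null arrays. The lowest array and the 2 highest were all Msi1-null, a 2.41-fold span against 1.32-fold among wild-type arrays. The log2 difference was 0.06 ± 0.32 (SE; 95% interval -0.68 to 0.80). The second Pdx1 probe set was below background on all arrays.

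Hnf4a, the nuclear receptor of gut and liver epithelium, read 939, 888 and 1179 in the wild-type and 527, 1282 and 1388 in Msi1-null arrays. Again Msi1-null replicate 1 was lowest, and replicates 2 and 3 lay above all wild-type arrays. Mean intensity was 1002 ± 155 for wild-type and 1066 ± 469 for Msi1-null (SD, n = 3), while on the log2 scale they differed by -0.02 ± 0.35 (SE; 95% interval -0.85 to 0.80), so the sign depends on the scale. Probe set 1427000_at repeated the order of the Msi1-null arrays, with 277, 612 and 651. At 1450447_at the 3 Msi1-null values, 158 to 173, lay above the wild-type values of 151 to 153, but 5 of these 6 were at or below background, and the log2 difference was 0.11 ± 0.06 (SE; unadjusted p = 0.107, limma). The fourth probe set was below background. Which of the Hnf4a starts these probe sets read was not determined.

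Foxa2, a forkhead factor of foregut epithelium, had the widest range of the 9 genes. Its intensity was 557, 410 and 546 in the wild-type and 293, 799 and 493 in Msi1-null arrays. The extremes were both Msi1-null, replicate 1 and replicate 2, a 2.73-fold span, with replicate 3 inside the wild-type range. The log2 difference was -0.04 ± 0.34 (SE; 95% interval -0.82 to 0.75). As for Hnf4a, the linear mean was the higher in Msi1-null arrays, 528 ± 255 against 504 ± 82.0 (SD, n = 3).

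Gata6, which opposes loss of epithelial identity in pancreatic cancer, followed another order. Its intensity was 754, 496 and 553 in the wild-type and 674, 689 and 524 in Msi1-null arrays, and it was the one gene of the 9 with the larger SD in wild-type arrays. Wild-type replicate 1 was highest and wild-type replicate 2 lowest, so the Msi1-null values lay within the wild-type range. The log2 difference was 0.08 ± 0.18 (SE; 95% interval -0.35 to 0.51). The second probe set, 1425463_at, read 306, 238 and 247 in the wild-type and 261, 311 and 263 in Msi1-null arrays. It too was lowest in wild-type replicate 2, with a log2 difference of 0.08 ± 0.12 (SE). Probe set 1443081_at had no overlap between the groups (a log2 difference of 0.10 ± 0.05, SE; unadjusted p = 0.0672), with every array below background. Together with the Hnf4a probe set above it was the only one of 22 without overlap, against 7.79% of all probe sets.

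**Figure D2:**
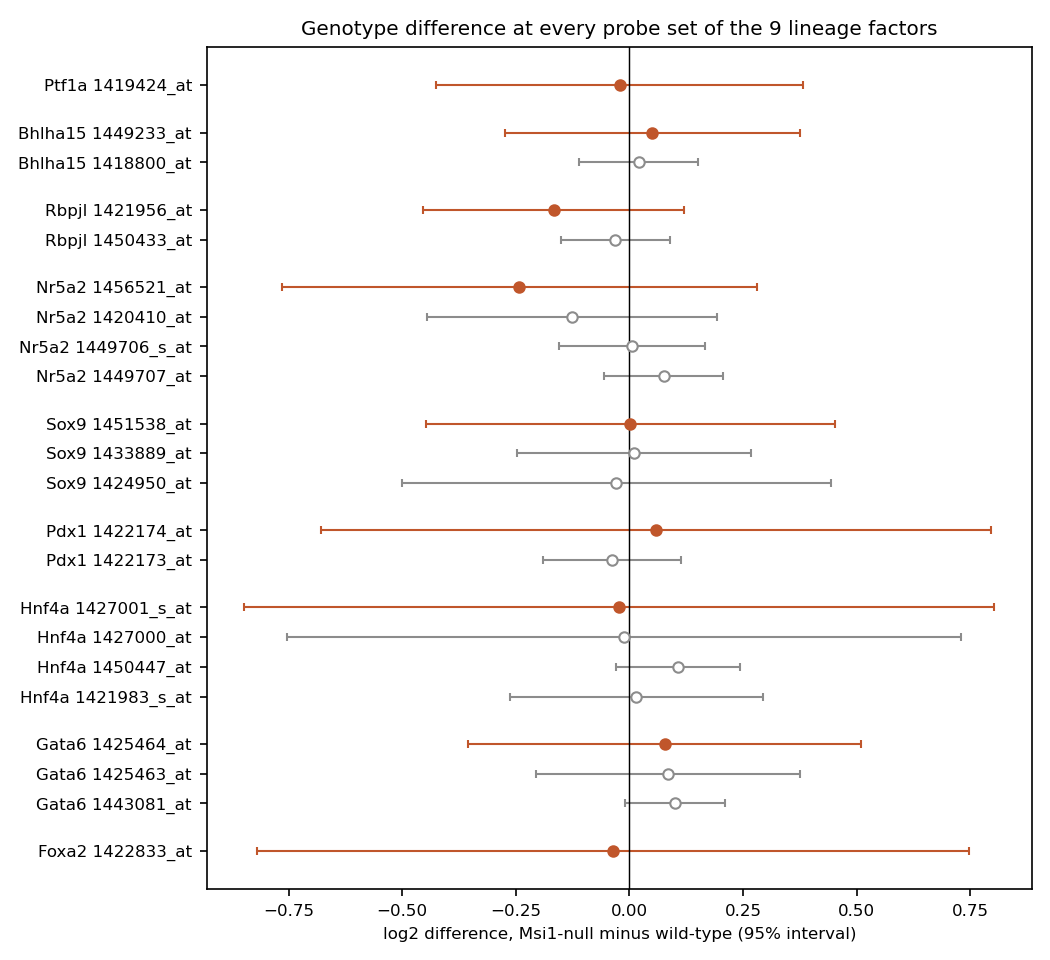
Log2 difference, Msi1-null minus wild-type, with its 95% interval (limma) at each of the 22 probe sets; filled orange points are the probe set of highest mean per gene and open grey points the others. Every interval includes 0, and the widest belong to Pdx1, Hnf4a and Foxa2.

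Acinar factors set against ductal and gut factors gave no clear shift. The mean log2 difference was -0.10 over the 4 acinar factors and 0.02 over the 5 ductal and gut factors, with medians of -0.09 and 0.0022, where the median over all genes was 0.00059. Acinar minus ductal and gut level, centred over the 6 arrays, was -0.11, 0.30 and -0.02 in wild-type replicates 1 to 3 and 0.37, -0.56 and 0.03 in Msi1-null replicates 1 to 3. The highest and the lowest array were thus both Msi1-null. The group means were 0.06 ± 0.22 and -0.06 ± 0.47 (SD, n = 3), a difference of -0.11 that is smaller than the spread within either group, and no test was run on this average of chosen genes.

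Msi1-null replicate 1 was low for most of the factors expressed above background. It was the lowest array for 5 of the 9 genes (Nr5a2, Sox9, Pdx1, Hnf4a and Foxa2), against 25.7% of all genes and 33.5% of the 11476 genes above background on all arrays. The other 5 arrays averaged, on the log2 scale, 2.12-fold above it for Hnf4a, 1.88-fold for Pdx1, 1.87-fold for Foxa2, 1.43-fold for Sox9 and 1.38-fold for Nr5a2. Gata6 was the exception among the clearly expressed factors, at 0.88-fold. A 1.5-fold or larger span among the Msi1-null arrays was seen for 6 genes, and among the wild-type arrays for 1, Gata6. Ptf1a, 1 of the 6, exceeded background on only 2 arrays. The share of all genes with such spans was not counted, so these counts do not set the factors apart from other genes.

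The genotype differences of Sox9, Pdx1, Hnf4a and Foxa2 depended on single arrays, this one among them. Without Msi1-null replicate 1, Pdx1 differed by 0.45 ± 0.14 (SE; unadjusted p = 0.0176) and Hnf4a by 0.42 ± 0.15 (SE; unadjusted p = 0.0271), both with an adjusted p of 0.814 (limma). Foxa2 then differed by 0.33 ± 0.24 and Sox9 by 0.22 ± 0.12 (SE). These 2 genes of 9 with an unadjusted p under 0.05 stand against 6.81% of all genes in the same fit (3.93% with a higher mean), and Msi1-null replicates 2 and 3 exceeded all wild-type arrays for 3 of the 9 (Sox9, Pdx1 and Hnf4a), against 12.9% of all genes. Leaving out the array in which a gene was lowest raises its difference in any case. The shares are over all genes, not over those lowest in this array, so these counts are no support for a genotype difference. With Msi1-null replicate 2 left out in its place, Foxa2 differed by -0.39, Hnf4a by -0.22 and Sox9 by -0.17. With Msi1-null replicate 3 left out, Hnf4a differed by -0.27 and Pdx1 by -0.18. In the same fit Nr5a2 differed by -0.49 ± 0.16 (SE; unadjusted p = 0.0191) and Rbpjl by -0.28 ± 0.10 (SE; unadjusted p = 0.0324), with an adjusted p of 0.9997 for both (limma). In that fit 3.86% of all genes had an unadjusted p under 0.05 (2.14% with a lower mean). Replicate 3 was the highest Msi1-null array for both genes, so leaving it out lowers their differences in any case. Rbpjl and Nr5a2 were the 2 genes that stayed negative in each of the 6 fits with 1 array left out, from -0.28 to -0.06 and from -0.49 to -0.10. With all arrays their differences were also the largest in size of the 9, so keeping their sign in fits of these same arrays is no independent support. The share of all genes that keep their sign was not counted.

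**Figure D3:**
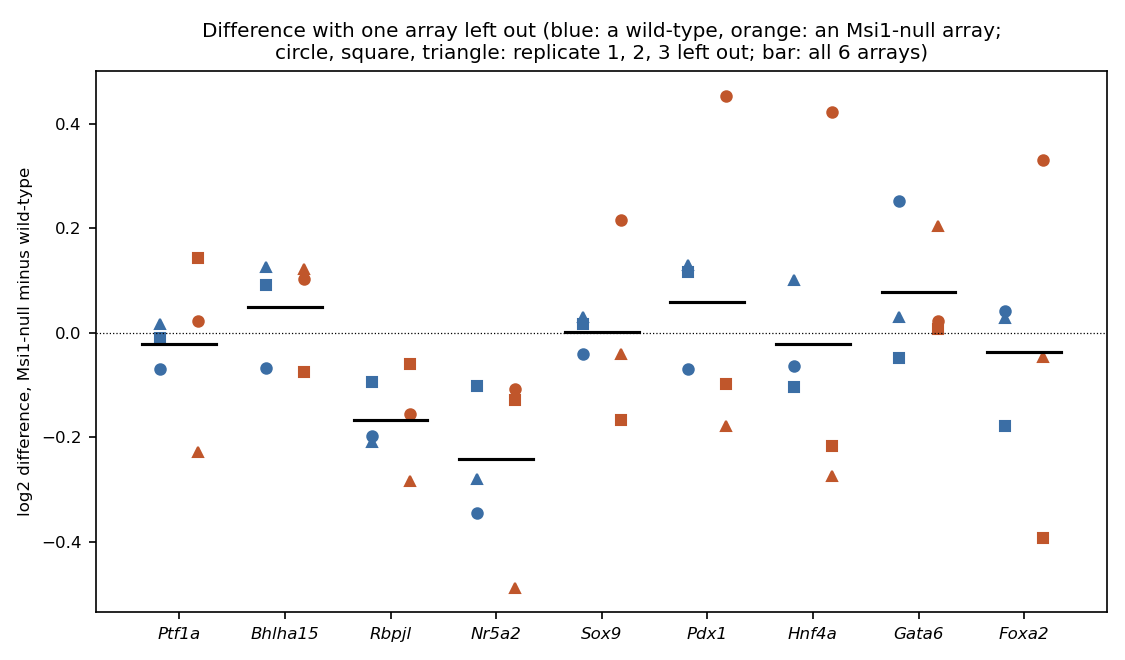
Log2 difference of each gene with all 6 arrays (black bar) and with 1 array left out (points; colour and shape name the array left out). Leaving out Msi1-null replicate 1 (orange circles) moves Sox9, Pdx1, Hnf4a and Foxa2 upwards, to between 0.22 and 0.45, while all points of Rbpjl and Nr5a2 lie below 0.

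The mean levels of duct and gut epithelial markers were, like 4 of the 5 ductal and gut factors, lowest in Msi1-null replicate 1. In Msi1-null replicate 1 the mean of 13 duct cell markers, centred over the arrays, was -0.43 (-0.15 to 0.26 in the others) and that of 15 gastric and intestinal markers -0.96 (-0.36 to 0.61). This array was the lowest for 9 of 13 duct markers and 10 of 15 gastric and intestinal markers. In the same array fibroblast, endothelial and immune markers were at their highest mean, 0.36, 0.39 and 0.19, and it was the highest array for 7 of 10, 6 of 7 and 8 of 12 of them, against 25.3% of all genes. Krt19, Krt7, Krt8 and Cldn4, the duct markers not lowest in Msi1-null replicate 1, read 6705, 6862, 10805 and 4187 there. Krt19 and Krt7 were lowest in wild-type replicate 2 (6174 and 6464), Krt8 and Cldn4 in Msi1-null replicate 2 (9938 and 1419). In bulk samples a change in cell numbers and one in RNA per cell cannot be told apart. The part of these cell types in the values of the factors was not tested. Msi1-null replicate 1 also had the lowest Gapdh 3' to 5' ratio, whose part was not tested either.

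**Figure D4:**
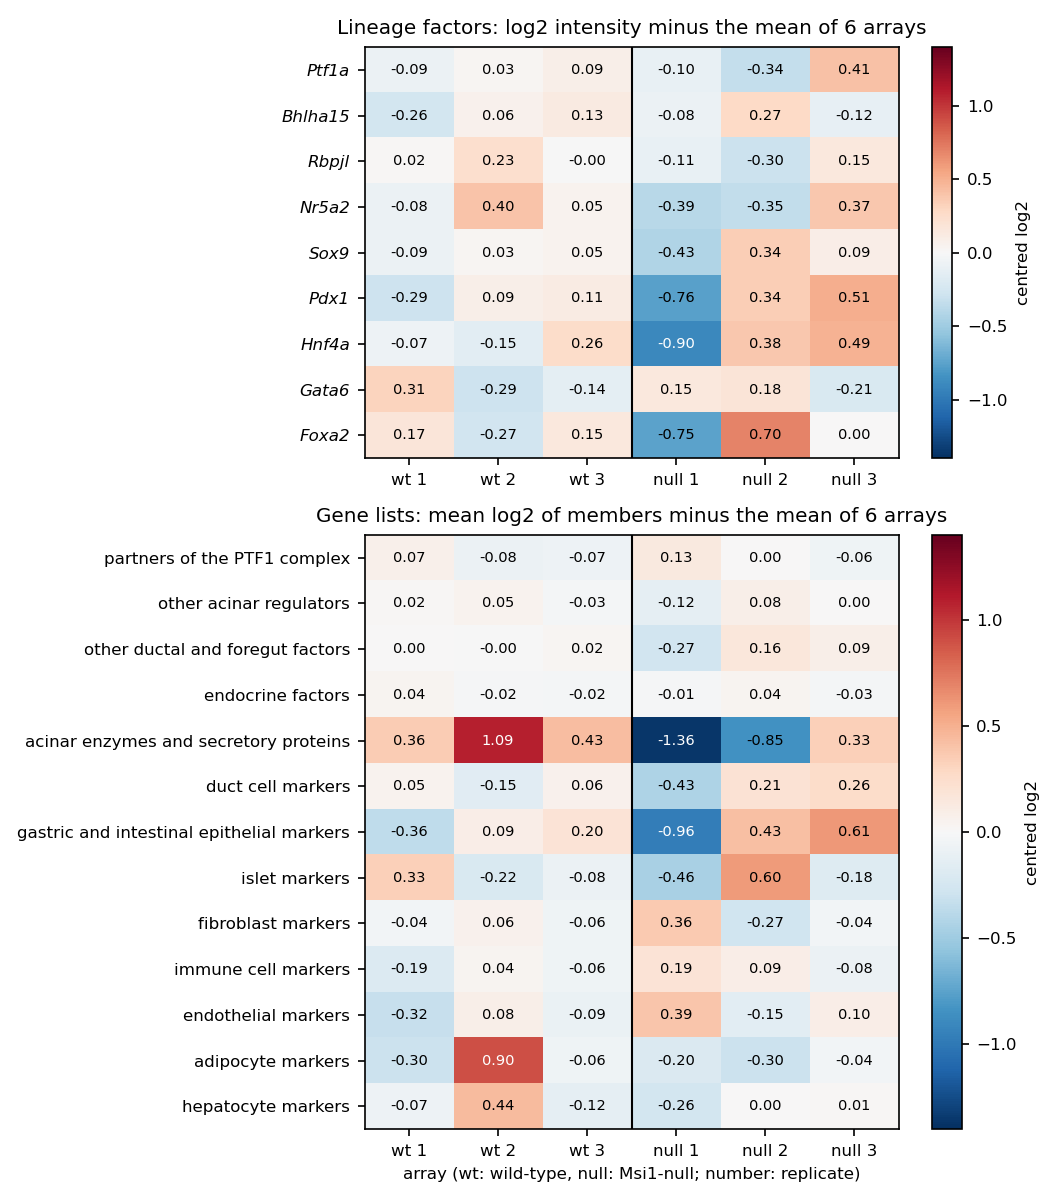
Centred log2 values per array (columns) for the 9 factors (upper panel) and for the mean of each gene list (lower panel); the line separates wild-type from Msi1-null arrays, and red is above and blue below the mean of the 6 arrays. Msi1-null replicate 1 is lowest for Hnf4a (-0.90), Pdx1 (-0.76), Foxa2 (-0.75) and the gastric and intestinal markers (-0.96), and acinar enzymes are lowest in Msi1-null replicates 1 and 2 (-1.36 and -0.85).

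The digestive enzyme genes, which the acinar factors control in normal pancreas, differed more between the genotypes than the factors did. Of 20 measured acinar enzymes and secretory proteins all 20 had a lower mean in Msi1-null arrays (49.8% of all genes did), with a median log2 difference of -1.27. None passed the adjusted threshold, and 16 had an unadjusted p under 0.05 and a lower mean, against 1.85% of all genes. The 4 with the smallest p were Rnase1, the pancreatic ribonuclease (-1.72 ± 0.51), Cela3b, an elastase (-1.98 ± 0.59), Pnliprp1, a lipase relative (-1.68 ± 0.51), and Cpb1, a carboxypeptidase (-1.91 ± 0.61, SE). The mean over all 20 enzymes per array, centred, was 0.36, 1.09 and 0.43 in the wild-type and -1.36, -0.85 and 0.33 in Msi1-null arrays. Cela3b, for example, read 5198, 9446 and 6507 in the wild-type and 749, 1528 and 4515 in Msi1-null arrays. Nr5a2 and Rbpjl shared with the mean over these enzymes, though not with each of them, their lowest arrays, Msi1-null replicates 1 and 2, and their highest, wild-type replicate 2. Nr5a2 did so over a 1.73-fold and Rbpjl over a 1.44-fold range, where Cela3b spanned 12.6-fold. The enzymes were chosen with their direction in these arrays already known, so their count is not independent evidence of it.

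Partners of the PTF1 complex and their antagonists were expressed above background in every array, 8 of 8 genes. Of these 5 had higher and 3 lower means in Msi1-null arrays, 0 passed either threshold and the median log2 difference was 0.06. Tcf12, a common bHLH partner, differed by -0.27 ± 0.12 (SE). It was the only 1 of the 8 without overlap between groups, where 8.28% of all genes had none. Id1, Id2 and Id3, which bind such partners and keep them off DNA, differed by 0.42 ± 0.21, 0.15 ± 0.14 and 0.16 ± 0.19 (SE). Rbpj, the general Notch pathway factor that RBPJL replaces in mature acinar cells, differed by 0.09 ± 0.12 (SE), from 1036 to 1335 over the 6 arrays.

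Other regulators linked to acinar cells gave 2 higher and 9 lower means among 11 measured genes, a median log2 difference of -0.02 and 0 genes past either threshold. Xbp1, the factor of the unfolded protein response that supports secretory cells, differed by 0.10 ± 0.07 (SE). It was the only 1 of the 11 without overlap between the groups (8.28% of all genes). Dicer1, Foxp1 and Creb3l2 differed by -0.11 ± 0.12, -0.13 ± 0.14 and -0.07 ± 0.11 (SE).

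Other ductal and foregut factors had 10 higher and 8 lower means among 18 measured genes, with a median log2 difference of 0.0050 and 0 past the adjusted threshold. At an unadjusted p under 0.05 there were 2, both lower, against 1.85% of all genes. These were Yap1, the effector of Hippo signalling, at a mean of 1197 for wild-type and 968 for Msi1-null (-0.31 ± 0.11, SE), and Prox1, a homeobox factor below background on all arrays (-0.13 ± 0.06, SE). Foxa3, a relative of Foxa2, differed by -0.40 ± 0.27 and Hey1, a Notch target, by 0.20 ± 0.14 (SE). Msi1-null replicate 1 was the lowest array for 10 of the 18, among them Onecut2, a cut homeobox factor of foregut epithelium, at 999 against 1849 to 2679, and Elf3, an epithelial Ets factor, at 877 against 1358 to 2589.

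None of the 10 measured endocrine factors was above background on all 6 arrays, though Isl1 was on 5. Their log2 differences lay between -0.09 and 0.08, with Neurod1 at -0.09 ± 0.05, Pax6 at 0.08 ± 0.05, Myt1 at -0.05 ± 0.05 and Nkx6-1 at -0.05 ± 0.05 (SE), and 0 passed either threshold. Of the islet markers 7 of 10 were above background on all arrays, with 4 higher and 6 lower means, a median of -0.03 and 0 past either threshold. The islet mean was highest in Msi1-null replicate 2 (0.60) and lowest in replicate 1 (-0.46), as were Foxa2 and Sox9, and the part of islet cells in those values was not tested.

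Markers of cell types outside the epithelium were above background on all arrays in 10 of 10 fibroblast, 7 of 7 endothelial and 9 of 12 immune genes, and 0 of the cell type markers passed the adjusted threshold. Krt19 and Krt18, keratins of the duct cell list, read 6174 to 9506 and 8682 to 13661. Higher and lower means numbered 7 and 6 for duct cells (median log2 difference 0.11), 8 and 7 for stomach and intestine (0.02), 6 and 4 for fibroblasts (0.01) and 9 and 3 for immune cells (0.13). They numbered 6 and 1 for endothelium (0.28), 0 and 4 for adipocytes (-0.36) and 3 and 3 for hepatocytes (-0.08). Several of these medians depended on 1 array. Without Msi1-null replicate 1 the median was 0.59 for stomach and intestine, 0.24 for duct cells, 0.04 for immune cells and 0.16 for endothelium, and without wild-type replicate 2 it was -9.1e-05 for adipocytes. An unadjusted p under 0.05 was found for Cldn18, a gastric claudin (-0.998 ± 0.42, SE), and Pecam1, an endothelial adhesion molecule (0.27 ± 0.11, SE). The adipocyte mean was high, 0.90, in wild-type replicate 2, where Nr5a2 and Rbpjl were also highest, and its part in their values was not tested.

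**Figure D5:**
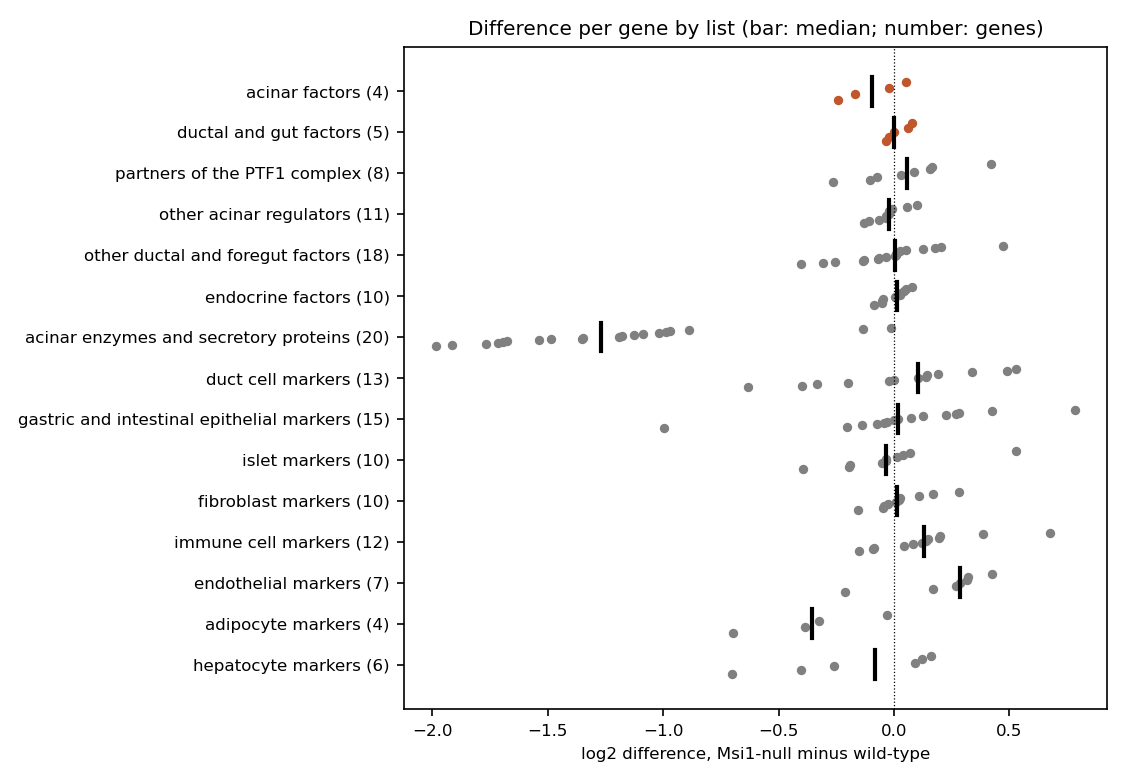
Log2 difference, Msi1-null minus wild-type, of each measured gene by list, with the lineage factors in orange, other genes in grey and the list median as a black bar. Both lists of lineage factors lie close to 0, while acinar enzymes have a median of -1.27.

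Genes with the most similar pattern over the 6 arrays were looked up for the 6 factors above background on every array. Likeness was the root mean square distance between centred log2 patterns, as a share of the factor's own deviation, so that 0 is an identical pattern. The nearest of 11476 genes to Foxa2 were Mlph, which encodes melanophilin, at 0.13 and Gsta4, a glutathione transferase, at 0.17. Mlph read 640, 479 and 601 in the wild-type and 347, 905 and 616 in Msi1-null arrays, the same order of Msi1-null arrays as Foxa2. For Sox9 they were Dennd2d (0.16) and Pura (0.20), for Hnf4a Ogt (0.20), the O-GlcNAc transferase, and Mtcl1 (0.22), and for Pdx1 Sigirr (0.21) and Smim22 (0.23). Gata6 was nearest to Epdr1 (0.18) and Dpm1 (0.26), while for Nr5a2 the nearest, Gpihbp1 and Raph1, were farther away, both at 0.42. These likenesses are a description of 6 arrays, which share genotype and tissue makeup.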

How the data were processed

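Total RNA, 6 ug per sample, was labelled with biotin and hybridised to 1 Affymetrix mouse array per sample, per the labels' protocols. The deposited intensity values are linear and were made by the authors with GCRMA, per the submitters' processing notes, with no version given; any later rescaling is not described in the labels. GCRMA corrects background by probe sequence, normalizes quantiles and summarises probes. The smallest intensity on any array was 51.2, in Msi1-null replicate 1. Differences of factors near background may appear smaller than they are, and the part of the processing in this was not tested. The number of arrays limits the precision.

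One allele that all samples share is not reported here. Of 45101 probe sets, 64 controls were left out. Platform annotation, checked by Entrez identifier against a RefSeq table of GRCm38.p6, gave 34945 probe sets 1 gene symbol, 932 several and 9160 none, and probe sets with several were not named. Tests used log2(intensity + 1), where the added 1 is small against the lowest intensity of 51.2. The genotype term came from lmFit and eBayes (trend) of limma 3.58.1, run in R 4.3.3, with p-values adjusted by the Benjamini-Hochberg method over 45037 probe sets at 0.05. SE and 95% intervals are limma's moderated ones; SD is over arrays. Exact permutation tests covered all 20 assignments of arrays.

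The members, the 13 further gene lists (162 genes, 144 measured; the others were not analysed here) and the tests were chosen with earlier results of these data known. Named from each list are its members, or, for the pathway and enzyme lists, the 4 genes of smallest unadjusted p. Of marker lists only counts and genes with an unadjusted p under 0.05 are given. Exceptions picked with their values known were Cela3b values per array, Rbpj, Onecut2, Elf3, Isl1, Krt7, Krt8, Krt18, Krt19 and Cldn4. Simulated arrays served to test the fit, each with 45037 probe sets and independent noise, 200 of them changed. Over 5 runs it found 95.2% of those moved by log2 1, 99.4% of those moved by log2 2, and 14.8 false ones per run. These shares do not give the chance of finding such a change in the lineage factors. The median SE was 0.08, but at their chosen probe sets it ran from 0.12 (Rbpjl) to 0.35 (Hnf4a). On the real arrays Cela3b, with a log2 difference of -1.98, had an adjusted p of 0.9997 (limma). Alternatives were a pseudocount of 16, a filter at a mean log2 of 7, quantile, median and cyclic loess normalization, eBayes without trend, weighted arrays, a replicate block, leaving out each array, probe sets averaged per gene and a threshold of 0.1.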

Additional observations from a re-analysis of the deposited data

How the results depend on the processing

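No alternative put a lineage factor past the adjusted threshold. The count of all probe sets past it was 0 with limma in every setting except without Msi1-null replicate 1, where it was 1, an Ighm probe set that encodes immunoglobulin heavy chain (range 0 to 1 over the fits with 1 array left out; 886 to 2723 probe sets at an unadjusted p under 0.05 over all alternatives). Acinar minus ductal and gut factors ran from -0.32 to 0.14 with 1 array left out and from -0.26 to -0.05 in the other settings, each within the spread between arrays of the value with all arrays.

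Rbpjl and Nr5a2, the genes with the largest differences in size, kept their sign in 13 of 13 alternatives. Not all of these could change it, as the replicate block leaves the difference the same in this balanced design. A larger difference also keeps its sign more readily. The other 7 genes changed sign in 23 of their 91 pairings of gene and alternative, 17 of them with 1 array left out, and none was past the threshold either way. With 1 array left out the log2 difference ran from -0.23 to 0.14 for Ptf1a, -0.075 to 0.13 for Bhlha15, -0.17 to 0.22 for Sox9, -0.18 to 0.45 for Pdx1, -0.27 to 0.42 for Hnf4a, -0.049 to 0.25 for Gata6 and -0.39 to 0.33 for Foxa2. With array weights, where Msi1-null replicate 1 had the lowest weight (0.34), it was 0.020 for Ptf1a, -0.0011 for Bhlha15, 0.25 for Hnf4a and 0.21 for Foxa2. With probe sets averaged per gene it was -0.0059 for Sox9 and 0.022 for Hnf4a, and also -0.07 for Nr5a2.

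Same-numbered arrays of the 2 genotypes had correlations of their deviations from the group means of 0.17, -0.09 and 0.28. For differently numbered arrays they ran from -0.26 to 0.06. These values do not settle whether the numbers pair the samples, and the main fit left them unpaired. With the replicate number as a block the count past the threshold was 0 for all probe sets and 0 for the 9 genes, and no call changed. The probe sets with an unadjusted p under 0.05 (limma) then numbered 2120, against 1355 in the main fit. With 1 array left out the list medians ran from -0.0034 to 0.09 for PTF1 partners, -0.04 to 0.01 for other acinar regulators, -0.08 to 0.04 for other ductal and foregut factors, -0.04 to 0.03 for endocrine factors, -1.81 to -0.93 for acinar enzymes, -0.02 to 0.24 for duct, -0.17 to 0.59 for gastric and intestinal, -0.32 to 0.13 for islet, -0.15 to 0.19 for fibroblast, 0.04 to 0.19 for immune, 0.16 to 0.43 for endothelial, -0.55 to -9.1e-05 for adipocyte and -0.17 to 0.07 for hepatocyte markers. Ptf1a, Bhlha15 and Rbpjl lie at or near array background, which limits what can be seen of them.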
